A study of Canis lupus familiaris with 8 samples.

Results

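The miR-25, miR-32, miR-92, miR-363 and miR-367 microRNAs (miRNAs) form one seed family, read here in dog serum from every array name for these miRNAs, canine (cfa) and murine (mmu) listings kept apart and star names left out. The rule matched 11 of 1224 miRNA names on the array, 6 canine and 5 murine, of which 10 share the family seed and 1, mmu-miR-363-5p, is the other arm of its precursor. Serum RNA of 8 client-owned Doberman Pinschers, aged 7 to 11 years per the labels, was hybridized to 8 one-colour arrays on one slide, one dog per array. The DCM group was 4 dogs with dilated cardiomyopathy (DCM) in its occult stage, labelled DoCM5 to DoCM8, all treated with pimobendan, an ACE inhibitor and an antiarrhythmic drug (sotalol or amiodarone). The control group was 4 dogs without signs of cardiac or systemic disease, labelled Con1 to Con4. Disease and treatment cannot be told apart in this design, and neither can group and slide row, since all DCM arrays lay in one row and all control arrays in the other. The study's methods list the dog of DoCM8 as younger than the labels' age range and its drugs as not given consistently.

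A miRNA binds its targets mainly through the seed, a short stretch near its 5′ end, so that the members of this family are predicted to share many targets although they are made from separate genes. In the gene order of the dog annotation UU_Cfam_GSD_1.0, MIR25 lies beside MIR93 and MIR106B, MIR92A-1 ends the run that begins with MIR17 (the miR-17-92 cluster), and MIR363 and MIR92A-2 lie in the run with MIR106A (the miR-106a-363 cluster). MIR32, MIR92B and MIR367 had no neighbour from these clusters. Members of the family are known to limit BCL2L11, a pro-apoptotic protein, and CDKN1C, an inhibitor of the cell cycle. miR-92a is known as a brake on vessel growth, miR-25 as a regulator of ATP2A2, the calcium pump of the heart muscle's sarcoplasmic reticulum, and miR-367 as a miRNA of pluripotent stem cells. The same mature miR-92a can come from either of its genes, and an array cannot tell these sources apart. In serum, less release per cell and fewer releasing cells cannot be told apart either.

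The listings of miR-25 and miR-92a and the murine listing of miR-363 were well above background in serum on all 8 arrays, while the other members were near the background or not detected. A feature (one spot) was kept when the scanner software called it well above background on at least 2 arrays of a group, and a name was detected when at least 1 of its 40 features was kept. By this measure 6 of the 11 family listings were detected, against 438 of all 1224 names. All 40 features were kept for cfa-miR-25, cfa-miR-92a, mmu-miR-92a and mmu-miR-363-3p. For the other detected listings, 20 of 40 features were kept for mmu-miR-32 and 1 of 40 for cfa-miR-92b. The 5 undetected listings were cfa-miR-32, cfa-miR-363, cfa-miR-367, mmu-miR-367 and mmu-miR-363-5p. Listings of miR-25 and miR-92b for the mouse were not analysed here.

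**Figure D1:**
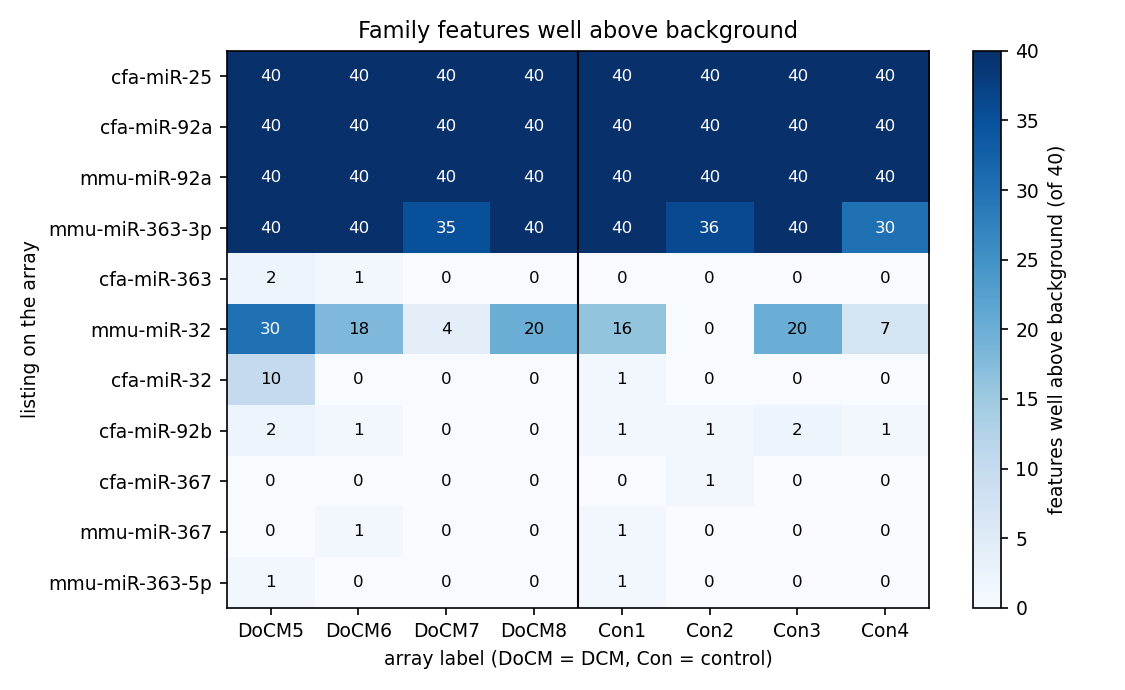
Number of features well above background, of 40 per listing, for the 11 family listings (vertical axis) on the 8 arrays (horizontal axis; DCM arrays left of the line, control arrays right). The 3 listings of miR-25 and miR-92a have 40 on every array, whereas cfa-miR-363 has at most 2 on an array where mmu-miR-363-3p has 40.

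For miR-363 and miR-32 the canine and murine listings differed in detection. mmu-miR-363-3p had 40, 40, 35 and 40 features well above background on DoCM5, DoCM6, DoCM7 and DoCM8, and 40, 36, 40 and 30 on Con1, Con2, Con3 and Con4, whereas cfa-miR-363 had 2 on DoCM5, 1 on DoCM6 and 0 on the other arrays. mmu-miR-32 had 30, 18, 4 and 20 on the DCM arrays and 16, 0, 20 and 7 on the control arrays in the same order. cfa-miR-32 had 10 on DoCM5, 1 on Con1 and 0 elsewhere. Both groups were thus uneven for mmu-miR-32, with an array at 4 or fewer features in each. The probe sequences of these listings were not used here, so that the listings are compared only as named.

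Within the miR-32 listings the probe designs differed in detection. mmu-miR-32 was printed in 4 designs of 10 features, and all kept features belonged to A_54_P2601 and A_54_P2602, with 10 each. Another design, A_54_P2600, was well above background on DoCM5 only, in 10 of 10 features at a mean deposited signal of 11.8, against 1.64 to 2.81 on the other arrays. The 10 features of cfa-miR-32 above background on DoCM5 likewise belonged to 1 of its designs, A_38_P00002215, at a mean signal of 8.59 there and 0.18 to 1.51 elsewhere. These signals are intensities before normalization, and DoCM5 was the brightest array over all detected names (median log2 signal 5.09, against 3.68 to 4.85 on the others). DoCM5 was also least like the others over all detected names (median correlation 0.924, against 0.957 to 0.968). The fold changes of the detected family listings other than cfa-miR-92b are therefore given with and without DoCM5. DoCM8, which the study's methods leave out for its expression levels, was the closest to the others (0.968). The numbers in the labels may therefore not be those of the study, and the 7 arrays without DoCM8 may lack another array than the one meant.

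miR-367 gave no signal in serum by these probes. cfa-miR-367 had 1 feature above background, on Con2, and mmu-miR-367 had 1 each on DoCM6 and Con1. The mean deposited signal of cfa-miR-367 over its 40 features lay between -0.74 and 0.063, and that of mmu-miR-367 between -0.13 and 1.42. The arm mmu-miR-363-5p, with a mean signal between -0.53 and 0.15, had 1 feature each on DoCM5 and Con1.

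Levels are given as normalized glog2 values, a log2-like scale from the vsn normalization of all 8 arrays, and are comparable between arrays for one listing but not between listings, whose probes differ. The value of cfa-miR-25 was 11.78, 10.93, 10.74 and 10.80 on DoCM5 to DoCM8 and 11.15, 10.65, 11.24 and 11.26 on Con1 to Con4. DoCM5 was the highest and Con2 the lowest of the 8 arrays, and the groups overlapped. Without DoCM5, the other DCM arrays lay between Con2 and the remaining control arrays.

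The value of cfa-miR-92a was 11.01, 9.77, 10.06 and 10.18 on DoCM5 to DoCM8 and 10.59, 10.35, 10.28 and 10.92 on Con1 to Con4. The value of mmu-miR-92a was 12.23, 11.17, 11.37 and 11.43 on the DCM arrays and 11.81, 11.64, 11.55 and 12.11 on the control arrays. In both listings DoCM5 was the highest of all arrays, and the other 3 DCM arrays lay below all 4 control arrays. Both listings put the 8 arrays in the same order.

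The other members had another order. mmu-miR-363-3p measured 3.96, 4.49, 3.56 and 3.96 on the DCM arrays and 3.63, 3.54, 4.20 and 3.32 on the control arrays. DoCM6, the lowest array for both miR-92a listings, was the highest here, and the groups overlapped. mmu-miR-32 measured 4.43, 2.92, 2.71 and 3.55 on the DCM arrays and 2.80, 1.64, 2.80 and 2.35 on the control arrays. DoCM7 alone of the DCM arrays lay within the control range. At least 50% of the kept features of mmu-miR-32 were well above background on 3 of 4 DCM arrays (not DoCM7) and on 2 of 4 control arrays (not Con2 and Con4), so that the lowest values are near the background.

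cfa-miR-92b rested on a single feature, which was well above background on 0 of 4 DCM arrays and on 2 of 4 control arrays. Its values were 2.05, 2.16, 2.07 and 2.49 on the DCM arrays and 1.61, 2.97, 2.11 and 2.35 on the control arrays, with the DCM arrays inside the control range. On Con3 the software marked this feature as an outlier, and its value there was used for want of another. It passed the filter through the control group only. Against the lowest level called above background on each DCM array no fold could be given, since that level (mean 2.36) exceeded the mean of the control arrays (2.26).

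**Figure D2:**
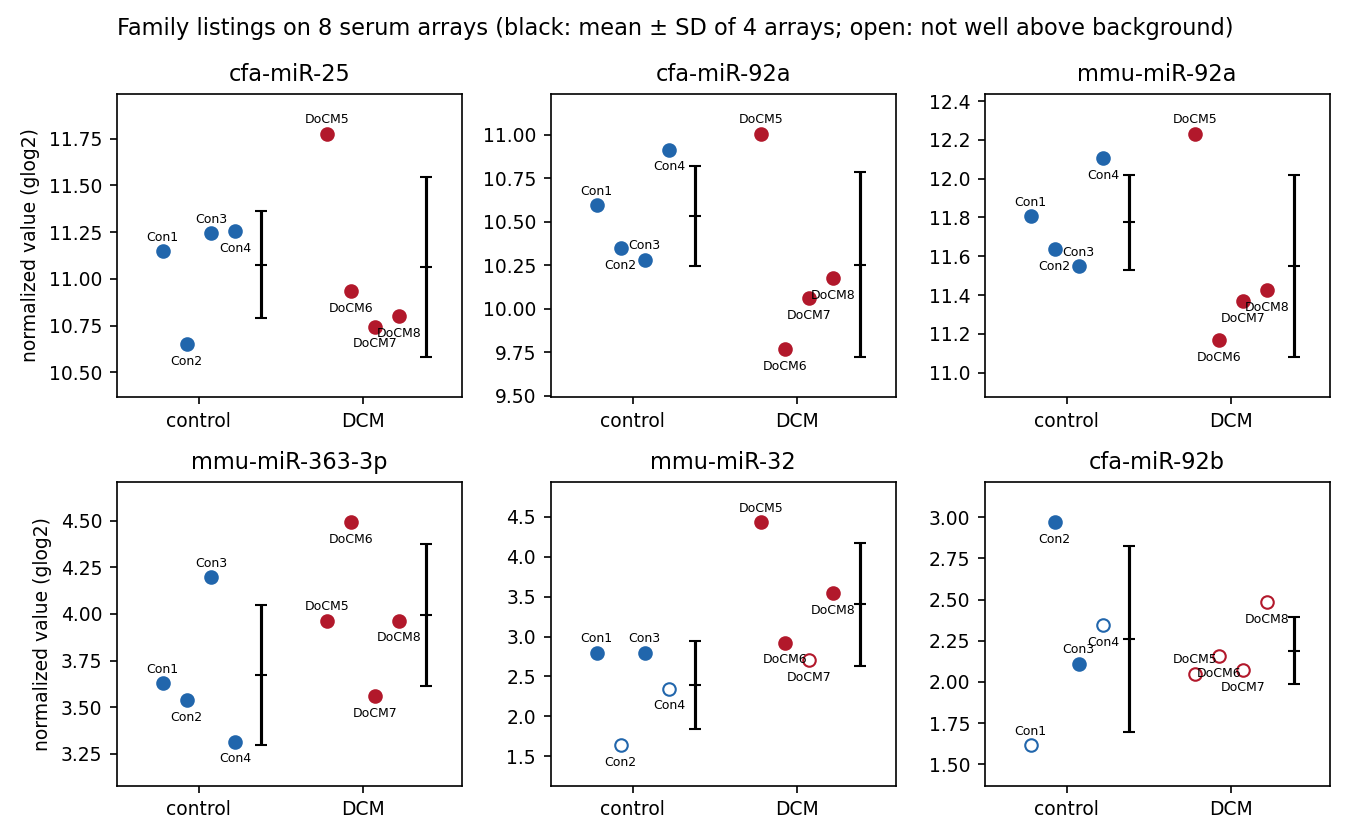
Normalized values (glog2, vertical axes, a separate scale for each panel) of the 6 detected family listings on the 8 arrays. Points are arrays, open where under 50% of the kept features were well above background, and black bars are the mean ± SD of 4 arrays; DoCM5 is highest for cfa-miR-25, both miR-92a listings and mmu-miR-32.

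mmu-miR-32 varied most between dogs. Its SD over the 8 arrays was 0.82, at the 92.7th percentile of all detected names, whose median was 0.49. The other 5 detected listings had an SD between 0.37 and 0.42, below that median. Over the kept features of an array, the coefficient of variation was 14.2% to 41.0% for mmu-miR-32 and 30.4% to 33.7% for cfa-miR-25, whose 2 designs differ in brightness.

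The comparison of DCM with control dogs asks whether the family's serum levels differ with the disease. Over the 7 arrays without DoCM8, which the study's methods leave out, 0 of the 6 detected family listings passed a limma p under 0.05 with a fold change over 1.5. The background was 12 of 438 names, or 2.74% (1.37% higher and 1.37% lower), and 0 names passed after Benjamini-Hochberg adjustment in limma, with 12 at an unadjusted p under 0.05. No family listing had groups without overlap, against 4.34% of all names (2.74% higher and 1.6% lower in DCM), and the same held on all 8 arrays, against 2.74% (1.6% higher and 1.14% lower). Without cfa-miR-92b, which passed the filter through the control group only, 3 of 5 listings had a higher and 2 a lower mean in DCM, where 50.2% of all names were lower. The median log2 fold change of these 5 was 0.056 over the 7 arrays, -0.011 over all 8 and -0.24 without DoCM5, against -0.0032 for all names over the 7 arrays.

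mmu-miR-32 had the largest measured difference in the family over these 7 arrays and over all 8, leaving aside cfa-miR-92b. It was not well above background on DoCM7, Con2 and Con4, so that its fold changes and their place in the family rest in part on values at the background. Without DoCM5, and with normexp background correction and quantile normalization (0.16 for mmu-miR-32), cfa-miR-92a exceeded it (-0.53 without DoCM5 in place of DoCM8, and -0.24). Over these 7 arrays it averaged 3.38 ± 0.93 (SD, n = 3) on the DCM arrays and 2.42 ± 0.56 (SD, n = 4) on those of the controls, a log2 fold change of 0.97 (standard error 0.47, limma p = 0.0644, adjusted p = 0.997; exact permutation test, two-sided, p = 0.143). On all 8 arrays it was 1.01 (standard error 0.41, limma p = 0.0313, adjusted p = 0.956; exact permutation p = 0.0857), and it was the only family listing past both limits, where 4.11% of all names passed (1.83% higher, 2.28% lower). Without DoCM5 in place of DoCM8 it was 0.49 (standard error 0.27, limma p = 0.100; exact permutation p = 0.171). It passed over the 7 arrays without DoCM6 (1.19) or without DoCM7 (1.41), and no longer passed over the 8 arrays without DoCM5, DoCM8, Con2 or Con4. Its designs gave 0.96 and 1.05 over the 7 arrays, of which the larger alone passed both limits.

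The miR-92a listings had lower means in DCM, by a difference within the spread between arrays that grew when DoCM5 was left out. Over the 7 arrays without DoCM8, the log2 fold change was -0.28 (standard error 0.37, limma p = 0.474; exact permutation p = 0.486) for cfa-miR-92a and -0.21 (standard error 0.36, limma p = 0.575; exact permutation p = 0.543) for mmu-miR-92a. Without DoCM5 in place of DoCM8 it was -0.53 (standard error 0.22, limma p = 0.0384, adjusted p = 0.678; exact permutation p = 0.0571) and -0.45 (standard error 0.20, limma p = 0.0524, adjusted p = 0.681; exact permutation p = 0.0571). Every DCM array then lay below every control array in both listings. In that set 5.94% of all names were without overlap and lower in DCM (8.68% in either direction), and 0 of 6 family listings passed both limits there, against 4.34% of all names (1.83% higher, 2.51% lower; 6.62% at an unadjusted p under 0.05). The sign turned for both listings when DoCM6 was left out of the 7 arrays without DoCM8, to 0.0052 and 0.033, and with 75th percentile scaling over all names, to 0.11 and 0.18, where the median of all names itself stood at 0.11. That of mmu-miR-92a also turned with quantile normalization (0.055).

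For cfa-miR-25 the direction depended on the arrays. The log2 fold change was 0.056 (standard error 0.36, limma p = 0.879; exact permutation p = 0.886) over the 7 arrays without DoCM8, -0.011 (standard error 0.31, limma p = 0.971; exact permutation p = 1) over all 8 and -0.24 (standard error 0.20, limma p = 0.257; exact permutation p = 0.2) without DoCM5 in place of DoCM8. The 95% interval over the 7 arrays ran from -0.73 to 0.84.

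For mmu-miR-363-3p the log2 fold change was 0.32 (standard error 0.36, limma p = 0.387; exact permutation p = 0.371; 95% interval -0.47 to 1.11) over the 7 arrays, 0.32 over all 8 and 0.29 without DoCM5, each smaller than its spread over the dogs. It stayed between 0.098 and 0.60 when single arrays were left out of the 7. For cfa-miR-92b, whose single feature passed the filter through the control group, no fold is given.

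**Figure D3:**
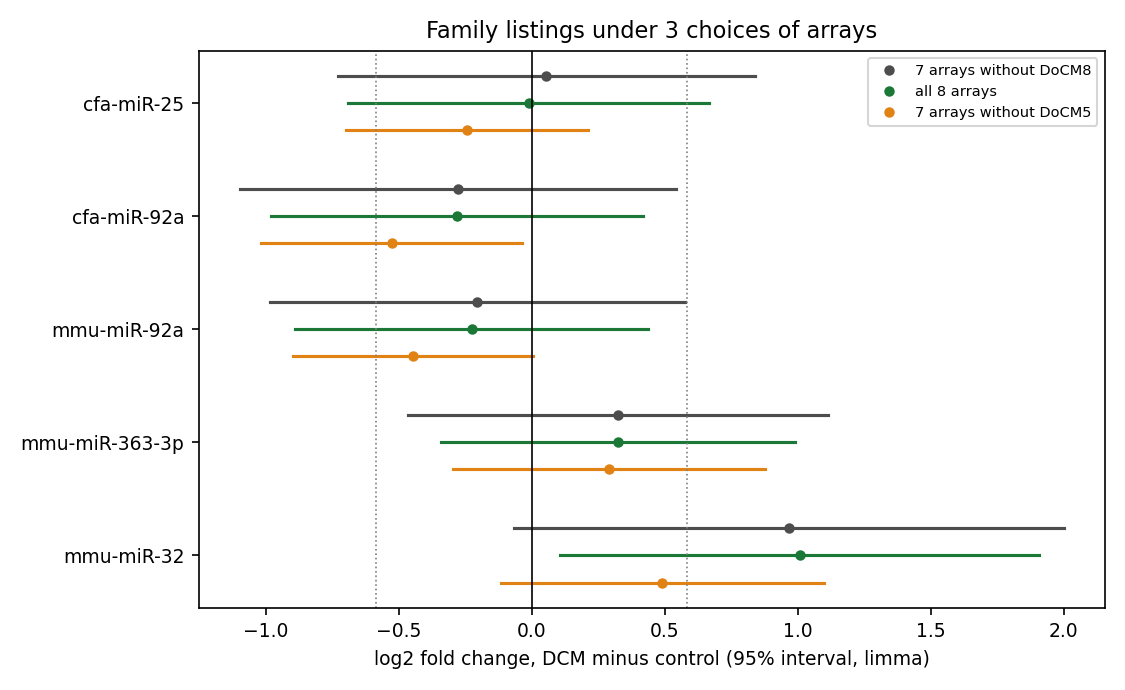
Log2 fold change, DCM minus control (horizontal axis), of the 5 detected family listings other than cfa-miR-92b for 3 choices of arrays; lines are 95% intervals from limma and dotted lines mark a 1.5-fold change. The interval of mmu-miR-32 lies above 0 with all 8 arrays (0.11 to 1.91), and that of cfa-miR-92a below 0 without DoCM5 (-1.02 to -0.035).

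In a difference between family listings within an array a common scale factor cancels, though not the other steps of the normalization, and the difference shows unequal change without saying which listing changed. All 15 pairs of the 6 detected listings were compared by an exact two-sided permutation test, with Benjamini-Hochberg adjustment over the 15. The 5 pairs with cfa-miR-92b are not read, since it rests on 1 feature near the background; over the other 10 the adjusted p is given as well, a choice made after seeing the data. The smallest p that 3 against 4 or 4 against 4 arrays allow is 0.0286. cfa-miR-25 minus mmu-miR-32 was 7.35, 8.01, 8.04 and 7.25 on DoCM5 to DoCM8 and 8.35, 9.02, 8.45 and 8.91 on Con1 to Con4. The measured value of every DCM array lay below that of every control array. How often differences between other detected names lacked overlap was not computed, so that this has no background share beside it. On DoCM7, Con2 and Con4 mmu-miR-32 was not well above background, so that the difference is only bounded there and the lack of overlap holds for measured values only. On the 5 arrays where it was well above background the difference was 7.25 to 8.01 in DCM and 8.35 and 8.45 in the control group. Over all arrays as measured, the group difference was -0.91 over the 7 arrays without DoCM8 (exact permutation p = 0.0286, adjusted p = 0.286 over 15 pairs and 0.190 over 10), -1.02 over all 8 (p = 0.0286, adjusted p = 0.143 and 0.0952) and -0.73 without DoCM5 (p = 0.0286, adjusted p = 0.286 and 0.190), all by the same exact test. With quantile normalization, the median over features or normexp, 0 of 15 pairs had a permutation p under 0.05, and with features well above background on at least 4 of 8 arrays 0 of 10.

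The same was seen against miR-92a. cfa-miR-92a minus mmu-miR-32 was 6.57, 6.85, 7.36 and 6.63 on the DCM arrays and 7.80, 8.72, 7.48 and 8.57 on the control arrays, again without overlap in the measured values and bounded only on DoCM7, Con2 and Con4. The group difference was -1.24 over the 7 arrays (exact permutation p = 0.0571, adjusted p = 0.286 over 15 pairs and 0.190 over 10), -1.29 over all 8 (p = 0.0286, adjusted p = 0.143 and 0.0952) and -1.02 without DoCM5 (p = 0.0571, adjusted p = 0.286 and 0.190). The pairs with mmu-miR-32 share its values and are not independent of each other. For this pair too, no share of pairs without overlap over all detected names was computed.

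Without any normalization the groups also did not overlap as measured, though on DoCM7, Con2 and Con4 the ratio too is only bounded. It was computed after seeing the data and uses the same signals, so that it is not separate evidence. The ratio of the deposited signals of cfa-miR-25 and mmu-miR-32 was 180 on DoCM5, 226 on DoCM6 and 132 on DoCM8, with DoCM7 between DoCM5 and DoCM6, and it was 265, 346, 299 and 357 on Con1 to Con4 (exact permutation p = 0.0286 for its log2 value in all 3 choices of arrays, adjusted p = 0.286, 0.143 and 0.286; group difference -0.63, -0.79 and -0.78). That of cfa-miR-92a and mmu-miR-32 was 105.6, 101, 129 and 86.1 on the DCM arrays and 181, 281, 154 and 282 on the control arrays. In both, the measured ratio of every DCM array lay below that of every control array, with no share over other pairs of names computed. Such a ratio is between probes of unlike brightness and can be read only between arrays, not as relative abundance. Its lower member had few features above background on DoCM7 (4 of 40), Con2 (0 of 40) and Con4 (7 of 40), and the part of this in the difference was not tested.

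cfa-miR-92a and mmu-miR-92a moved together. Their difference within an array was -1.24 ± 0.045 (SD, n = 4) for the controls and -1.30 ± 0.077 (SD, n = 4) for DCM, and the group difference of -0.06 had an adjusted p of 0.429 by the exact permutation test over all 8 arrays. Their Pearson correlation over the 8 arrays was 0.996 (exact permutation p = 2.48e-05, the smallest it can give), and Spearman's rho was 1 (exact permutation p = 4.96e-05). Without DoCM5 and Con4, the arrays farthest from the median, r was 0.993. The listings are therefore not separate evidence on miR-92a.

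cfa-miR-25 and cfa-miR-92a followed each other less closely. Their difference was 0.77, 1.16, 0.68 and 0.62 on the DCM arrays and 0.56, 0.30, 0.96 and 0.34 on the control arrays. The groups overlapped through Con3, and the group difference of 0.33 over the 7 arrays had an adjusted p of 0.551 by the exact permutation test. As a description over the 8 arrays, DoCM5 among them, the Pearson correlation was 0.73 between cfa-miR-25 and cfa-miR-92a and 0.65 between cfa-miR-25 and mmu-miR-32. It was 0.25 between cfa-miR-92a and mmu-miR-32, and -0.53 between cfa-miR-92a and mmu-miR-363-3p, which lies beside a miR-92a gene. The part of the brightness of DoCM5 in these normalized values was not tested.

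**Figure D4:**
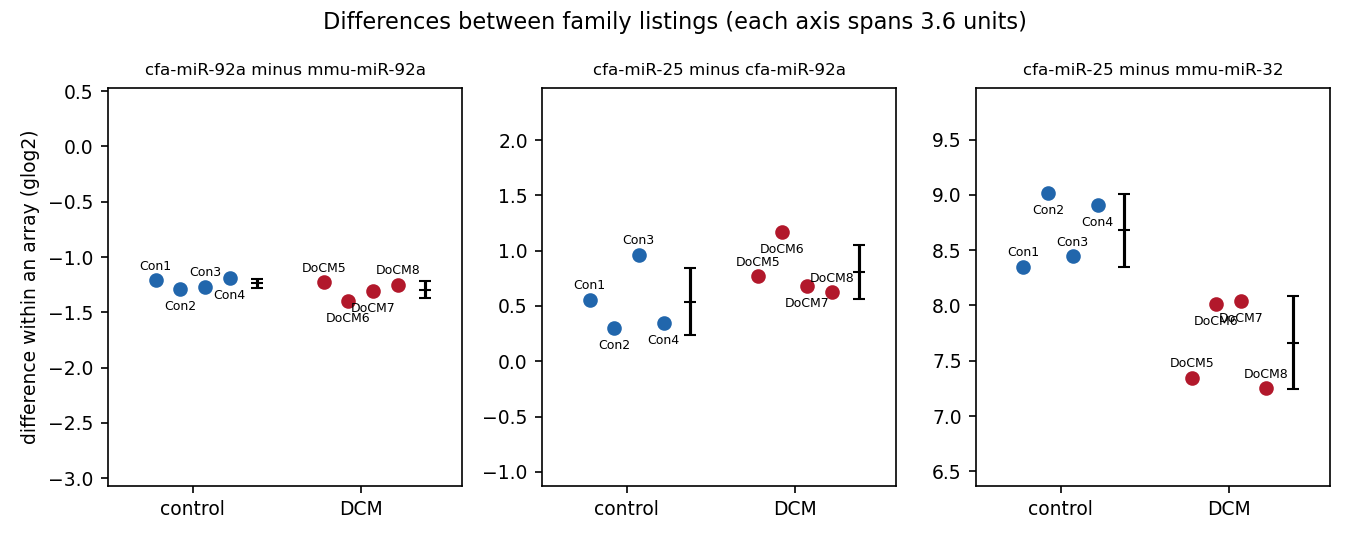
Difference between 2 family listings within an array (glog2, vertical axes, each spanning the same range) for the 4 control and 4 DCM arrays, with mean ± SD in black. The miR-92a listings differ by a nearly constant amount, and cfa-miR-25 and cfa-miR-92a overlap between groups. The measured cfa-miR-25 minus mmu-miR-32 is lower on every DCM array. It is only bounded on DoCM7, Con2 and Con4, where mmu-miR-32 was not well above background. How often other pairs of names lack overlap was not computed.

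The miRNAs made from the same clusters were read beside the family. They comprised miR-17, miR-18a, miR-19a, miR-19b and miR-20a of the miR-17-92 cluster, miR-106a, miR-18b and miR-20b of the miR-106a-363 cluster, and miR-106b and miR-93 beside miR-25; several of them belong to the miR-17 seed family, known to promote the cell cycle. Of 14 such listings 13 were detected (not mmu-miR-18b), and 0 of 13 passed both limits with any of the 3 choices of arrays, against 2.74%, 4.11% and 4.34% of all names. Their mean was higher in DCM in 12 of 13 over the 7 arrays without DoCM8, in 13 of 13 over all 8 and in 8 of 13 without DoCM5, where 50.2%, 50% and 50.2% of all names were lower. The median log2 fold change of the 13 was 0.30, 0.34 and 0.12 in that order. These listings share clusters and arrays, and miR-18a, miR-19b and miR-20b have a canine and a murine listing each. Their directions are therefore not independent of each other.

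cfa-miR-17 had the largest difference among them. Its values were 4.43, 3.43, 3.39 and 4.28 on DoCM5 to DoCM8 and 3.70, 2.19, 3.47 and 2.84 on Con1 to Con4. Of its 40 features 20 were kept, and 3 on Con2 and 10 on Con4 were well above background, so that its lowest values are near the background. The groups overlapped through Con1 and Con3, and the log2 fold change was 0.70 (standard error 0.44, limma p = 0.140; exact permutation p = 0.286) over the 7 arrays and 0.83 (standard error 0.39, limma p = 0.0551; exact permutation p = 0.171) over all 8. cfa-miR-19a and cfa-miR-20a, of the same cluster as miR-92a, had log2 fold changes of 0.38 and 0.45 over the 7 arrays (exact permutation p = 0.457 and 0.371). Those of cfa-miR-19b and cfa-miR-92a were -0.11 (exact permutation p = 0.8) and -0.28. The murine listing of miR-19b, mmu-miR-19b, went the other way from cfa-miR-19b, with 0.30 (exact permutation p = 0.457). Over all 8 arrays cfa-miR-19a, cfa-miR-20a, cfa-miR-19b and cfa-miR-92a had 0.43, 0.42, 0.099 and -0.28, so that the sign of cfa-miR-19b turned. Without DoCM5 they had 0.24, 0.22, -0.12 and -0.53 in that order. mmu-miR-19b stayed higher in DCM over all 8 arrays (0.36) and without DoCM5 (0.17).

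**Figure D5:**
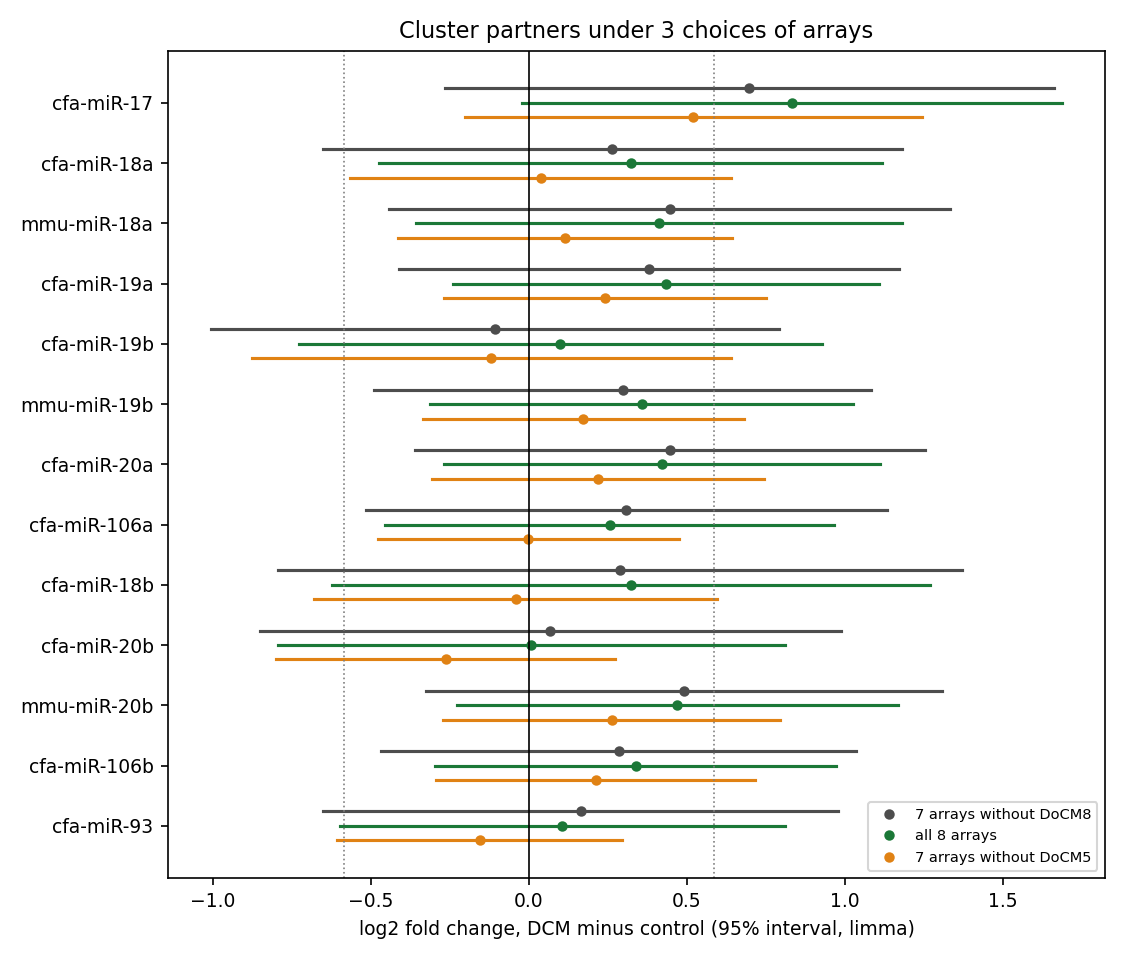
Log2 fold change, DCM minus control (horizontal axis), of the 13 detected cluster partners for 3 choices of arrays; lines are 95% intervals from limma and dotted lines mark a 1.5-fold change. All intervals include 0, and the points lie above 0 for 12, 13 and 8 of the 13 listings.

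Of the detected names, cfa-miR-20b, of another run, followed cfa-miR-25 most closely across the dogs (Pearson r 0.979), so that a close relation was not particular to neighbours. cfa-miR-25 also followed its neighbour cfa-miR-93. In 8 relations examined, each over 8 arrays, their Pearson correlation was 0.969 (exact permutation p = 0.000298, adjusted p = 0.00119) and Spearman's rho 0.905 (exact permutation p = 0.00456, adjusted p = 0.0183). Without DoCM5 and Con2, the arrays farthest from the median of cfa-miR-25, r was 0.913. With cfa-miR-106b of the same run, r was 0.682 (exact permutation p = 0.0642, adjusted p = 0.148; rho 0.5, p = 0.216, adjusted p = 0.346) and fell to -0.153 without these arrays, so that the relation rested on them.

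For cfa-miR-92a and the miRNAs of its own cluster, r was lower than for cfa-miR-25 and cfa-miR-93, and the difference was not tested. The Pearson correlation of cfa-miR-92a was 0.112 with cfa-miR-17, 0.342 with cfa-miR-20a, 0.435 with cfa-miR-19a, 0.626 with cfa-miR-18a and 0.663 with cfa-miR-19b. The adjusted p of the exact permutation tests was 0.148 or more for r, and rho lay between 0.167 and 0.667 with an adjusted p of 0.222 or more. Without DoCM5 and Con4, r lay between -0.194 and 0.469 for these 5. Within a group (and slide row) there were only 4 arrays, and these relations were not computed within groups. The r values given take no account of group.

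Leaving out listings of the same miRNA for the other species, the detected names most like each family listing over the 8 arrays were found by Pearson correlation. They are a description chosen from all other detected names, and the part of the brightness of the arrays in it was not tested. For cfa-miR-25 they were cfa-miR-20b (0.979), cfa-miR-93 (0.969) and cfa-miR-1842 (0.947). For both miR-92a listings they were cfa-miR-30c, mmu-miR-3107 and mmu-miR-93*, at 0.971, 0.966 and 0.948 for cfa-miR-92a. For mmu-miR-32 they were mmu-let-7i (0.984), cfa-miR-301b (0.970) and cfa-miR-499 (0.966), and for mmu-miR-363-3p cfa-miR-542 (0.936), mmu-miR-3075 (0.877) and mmu-miR-590-5p (0.856). The nearest name to cfa-miR-92b, on its single feature, was mmu-miR-344f-5p (0.942). None of these names was shared between the lists of cfa-miR-25, miR-92a and mmu-miR-32.

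Blood cells are rich in miR-25 and miR-92a, so that markers of the cells that can release miRNAs into serum were set beside these results. The erythrocyte list included miR-486, which matched no name on the array, so that it is not counted here. Of the erythrocyte listings (miR-451, miR-144, miR-16 and miR-185) 5 of 5 were detected, with 1 higher in DCM past both limits over the 7 arrays (1.37% of all names), 2 over all 8 (1.83%) and 1 without DoCM5 (1.83%). The log2 of their summed level lay between 16.71 and 17.29 on the DCM arrays and between 16.88 and 17.21 on the control arrays. For leukocytes 8 of 8 listings were detected, with 1 higher past both limits in each of the 3 choices and a sum between 12.25 and 13.31 in DCM and between 12.83 and 13.27 in the control group. For platelets and endothelium 5 of 5 were detected and 0 passed both limits, with a sum between 8.97 and 10.54 in DCM and between 9.36 and 9.55 in the control group. For liver the 1 listing, cfa-miR-122, was detected and passed both limits in 0 of the 3 choices, with a level between 4.93 and 7.36 in DCM and between 5.32 and 7.69 in the control group and a log2 fold change of -0.78, -0.69 and -0.33. For the erythrocyte listings the median log2 fold change was 0.25 over the 7 arrays, 0.099 over all 8 and 0.22 without DoCM5. In the same order it was 0.088, 0.065 and 0.041 for the leukocyte listings. It was 0.13, 0.12 and -0.16 for the platelet and endothelium listings, and 0.23, 0.027 and 0.0032 for the heart and muscle listings. Of the heart and muscle listings 6 of 11 were detected (cfa-miR-1, cfa-miR-133b, cfa-miR-206, cfa-miR-499, mmu-miR-1a and mmu-miR-208a-5p), with 1 lower past both limits over the 7 arrays (1.37% of all names) and 0 in the other choices, and a sum between 7.05 and 7.64 in DCM and between 6.89 and 8.76 in the control group. cfa-miR-208a, cfa-miR-208b, cfa-miR-133a and both arms of mmu-miR-1b were not detected. The ranges of the groups overlapped for all 5 lists, and their part in the family's values was not tested.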

How the data were processed

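Serum RNA was measured on one-colour miRNA arrays. Per the file headers and labels, the authors extracted the deposited intensity with Agilent Feature Extraction 10.7.3.1, background-subtracted and not normalized between arrays; the deposited value table held the same intensities. The deposited flags (well above background, outlier) were used as given by the authors' software. Groups came from the labels.

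Outlier-flagged features were left out on their array, except where all kept features of a name were so marked, as for cfa-miR-92b on Con3, and were then averaged. A feature was kept with at least 2 well above background flags in a group, and mean intensity per name was normalized by the vsn model (own implementation, least trimmed squares quantile 0.9, 5 slices, 7 iterations). limma 3.58.1 in R 4.3.3 was fitted over all 438 detected names, with Benjamini-Hochberg adjustment over them, and tested on simulated data. Figures used matplotlib 3.10.9, pandas 2.3.3 and numpy 2.4.6. The main set was 7 arrays without DoCM8, after the study's methods, although DoCM5 was the array that stood apart in these files. Permutation tests enumerated all splits of the arrays. The named miRNAs were the family listings, the cluster partners and, for each detected listing, the 3 names of highest correlation. These members and lists were chosen with earlier results of these data known. Alternatives covered arrays, normalization, signal column, averaging, filter, outliers, slide column and probe design. The small number of arrays limits precision. Mature sequences were not used here.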

Additional observations from a re-analysis of the deposited data

How the results depend on the processing

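The count of names past both limits, 12, was 18 on all 8 arrays and 19 without DoCM5 in place of DoCM8. It was 23 with 75th percentile scaling over the detected names (2 higher and 21 lower, against 6 and 6), 2 with normexp and quantile normalization, 44 without a filter on dim features, 27 with at least 1 flag and 7 with features well above background on at least 4 of 8 arrays. It ran from 10 to 30 with an array left out of the 7. With an array other than DoCM5 or DoCM8 left out of the 8 it ran from 17 to 29. Without DoCM5 and DoCM8 it was 29 and without DoCM6 and DoCM8 30. From the 8 it was 22 without Con3 and 20 without Con4. After adjustment the count was 1 with 75th percentile scaling over the detected names and 0 in the other settings. That scaling moved the median log2 fold change of all names by -0.25, and the same over all names by 0.11.

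The count of family listings past both limits, 0, was 1 on all 8 arrays (mmu-miR-32), and 0 to 1 with an array left out of the 7 or the 8; without DoCM5 and DoCM8 the 1 listing was cfa-miR-92a (-0.61). The count of cluster partners, 0, was 1 with the median over features (cfa-miR-19b), 0 with an array left out of the 7, and 0 to 1 from the 8 (cfa-miR-17). Of the family, 11 listings were included with no filter or with at least 1 flag. Pairs with an exact permutation p under 0.05, 1 of 15, were 3 on all 8 arrays, 0 with quantile normalization, the median over features or normexp, 2 with at least 1 flag, 1 on the deposited signal without normalization (chosen after seeing the data), 1 over the 10 pairs without cfa-miR-92b, 0 over these 10 with features well above background on at least 4 of 8 arrays (both also chosen after seeing the data), and 1 to 4 with an array left out of the 8. With an array left out of the 7 such a test cannot reach 0.05.

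Signs turned for cfa-miR-25 on all 8 arrays (-0.011) and without DoCM5 in place of DoCM8 (-0.24), and for cfa-miR-92a with 75th percentile scaling over all names (0.11). The sign of mmu-miR-92a turned with the same scaling (0.18; the median of all names was 0.11 there), quantile normalization (0.055), normexp (0.056), no filter (0.040), names with at least 50% of features kept (0.016) and at least 1 flag (0.044). With an array left out of the 7, log2 fold changes ran from -0.23 to 0.31 for cfa-miR-25, -0.61 to 0.0052 for cfa-miR-92a and -0.50 to 0.033 for mmu-miR-92a. With an array other than DoCM5 or DoCM8 left out of the 8, they ran from -0.16 to 0.12, -0.37 to -0.11 and -0.31 to -0.085 in that order. Without DoCM5 alone they were -0.24, -0.53 and -0.45. With the same arrays left out, mmu-miR-32 ran from 0.30 to 1.41 and from 0.73 to 1.34, and it was 0.49 without DoCM5 alone. In the other settings it ran from 0.16 (normexp) to 1.25 (median over features). mmu-miR-363-3p kept its sign in all settings run, from 0.079 (normexp) to 0.51 (75th percentile scaling over all names) apart from left-out arrays. For cfa-miR-92b no fold is given. The causes were not tested. No paired analysis was possible because no replicate number occurs in both groups; with the slide column as a block, 13 names and 0 family listings passed both limits (mmu-miR-32 0.95).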
